A study of Mus musculus with 16 samples.

Results

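Macrophages grown from bone marrow were compared between the arrays whose title ends in 2.2 and those whose title ends in 1.2. Of the 16 arrays of the series, 8 entered the comparison, 4 numbered 2.2 and 4 numbered 1.2. Per the labels, the first digit is the number of the mouse and the second that of the duplicate, so the comparison set mouse 2 against mouse 1 within duplicate number 2. Each number held 1 array labelled wild-type (WT) untreated, 1 WT with aggregated LDL (agLDL), 1 Ndst1-deficient untreated and 1 Ndst1-deficient with agLDL, and the arrays were paired by these labels.

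Every mouse was of the C57BL6 background, 12 weeks old, and carried floxed Ndst1 alleles. The Ndst1-deficient label stands for mice that also carry LysMCre (Ndst1f/fLysMCre+), in which Cre recombinase is expressed from the Lyz2 locus of myeloid cells, and WT stands for mice without it (Ndst1f/fLysMCre-). Cells were grown with recombinant macrophage colony stimulating factor (M-CSF), and the agLDL cells received 50 µg/ml agLDL for 24 hours in medium with lipoprotein-deficient serum, while the untreated cells received 0 µg/ml. The 8 arrays came from 4 mice, 2 of each genotype label, and each mouse gave an untreated and an agLDL array. The 4 pairs therefore rest on 2 pairs of mice, and the p-values below measure a spread between arrays that is in part technical. Mice of the same number under the 2 genotype labels are different animals, and the labels do not say what else, such as a culture day, a number stands for.

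Macrophages grown from marrow in M-CSF depend on that factor for survival and division, and they make interferon-beta at a low tonic level that keeps interferon-stimulated genes partly on. Type I interferon acts through a receptor, the kinases Jak1 and Tyk2 and factors that include STAT2 and IRF9, which bind an interferon-stimulated response element (ISRE) in the promoters of their targets. Aggregated LDL is taken up by macrophages and turns them into cholesterol-laden foam cells, and Ndst1 encodes an enzyme that sulfates heparan sulfate chains.

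RNA of each sample was hybridised to a single-colour Illumina mouse bead array, and a value below is a log2 signal after background correction and quantile normalization. Raw median signals lay between 149.5 and 157.2 and the detected probes between 9563 and 10115 of 25697 per array. The number of arrays limits the precision. One array stood apart, the 1.2 Ndst1-deficient untreated array. It had the highest raw 75th percentile signal (386.5, against 340.2 to 358.8 on the other arrays) and the most detected probes (10115). Its mean root-mean-square distance to the other arrays of its number was 0.426 log2 units, against 0.24 to 0.315 for the other 7 arrays. On both slides positions B and F held the 2.2 arrays and positions D and H the 1.2 arrays, so array position and number cannot be told apart. Slide 1 held the arrays labelled WT and slide 2 those labelled Ndst1-deficient. Each slide held both numbers, and within-slide differences are given below.

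The labels were checked first. Ndst1 was not analysed here. Lyz2, which encodes lysozyme and carries the Cre insertion in LysMCre mice, had 3 probes. The brightest, with a mean raw signal of 39754, took only the normalized values 15.36, 15.30 and 15.23 over the 8 arrays, each of them on more than 1 array, and its 2 groups differed by 0.07 (adjusted p = 0.697). The second Lyz2 probe had log2 signals of 12.88, 12.95, 12.79 and 12.72 on the 2.2 arrays and 11.79, 11.78, 11.60 and 11.82 on the 1.2 arrays, in the order WT untreated, WT agLDL, Ndst1-deficient untreated and Ndst1-deficient agLDL, which all such lists below follow. The 2 groups of Lyz2 values did not overlap, and the difference was 1.09 ± 0.10 (SE, n = 4 pairs, adjusted p = 0.000818). The dimmest Lyz2 probe was higher on the 2.2 arrays by 1.88 (adjusted p = 0.000489). Between the genotype labels the second and the dimmest Lyz2 probe differed by -0.12 and -0.29 (Ndst1-deficient minus WT, adjusted p 0.624 and 0.585). Lyz1, a near-identical neighbour of Lyz2 whose RNA a probe may not separate, had 2 probes that were lower on the 2.2 arrays by 1.17 and 1.23 and another that differed by 0.28 (adjusted p = 0.127). The second and the dimmest Lyz2 probe differed between array numbers under both genotype labels, and no difference between the genotype labels passed the test. The genotype labels are therefore not borne out by Lyz2 and stay in doubt. The labels do not say how many Lyz2 alleles carry Cre, and whether these probes would read the insertion was not tested. A number, genotype or treatment below is what the title of the array says, and what a difference between the arrays labelled 2.2 and 1.2 stands for depends on those titles.

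Arrays of the same number were the nearest to each other. Over all genes tested, all 8 arrays had an array of the same number as their nearest, and none had its pair partner of the same label. The root-mean-square distance was 0.291 ± 0.084 log2 units between arrays of the same number (SD over 12 distances) and 0.414 ± 0.043 between the 2 arrays of a pair (4 distances). Number accounted for 46.1% of the variance among the 8 arrays, the genotype label for 12.8% and the agLDL label for 12.7%. A term unrelated to the values would take 14.3% on average, with no other term set apart. Both labels are balanced against number and can only take from what number leaves. The 14.3% is therefore too high a mark for the labels, and their shares were not tested. The plot of the first 2 principal components sets the 2.2 arrays at 13.55 to 16.41 on the first axis and the 1.2 arrays at -17.35 to -12.89.

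**Figure D1:**
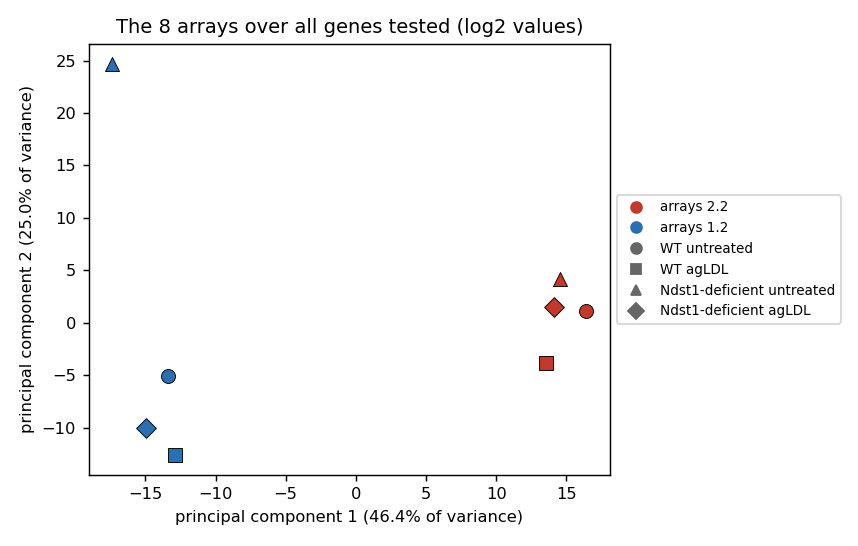
Principal components 1 (46.4% of variance) and 2 (25.0%) of the log2 values of all genes tested, 1 point an array. The 4 red 2.2 arrays lie at the right and the 4 blue 1.2 arrays at the left, and the 1.2 Ndst1-deficient untreated array lies apart at 24.72 on component 2.

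Of 7360 genes and unnamed probes tested, 961 (13.1%) differed between numbers in limma's paired fit at a Benjamini-Hochberg adjusted p under 0.05. On the 2.2 arrays 518 were higher (7.04%) and 443 lower (6.02%). All 961 had the same sign in the 4 pairs, which a call in a paired fit favours. Over all genes tested 2757 (37.5%) had the same sign in the 4 pairs. Changes of 2-fold or more were found for 39 higher and 98 lower genes. The median difference over all genes was 0.02, and the median size among the called genes was 0.56 on the log2 scale. Of the 6754 genes detected on all 8 arrays, 825 were called (12.2%), 457 higher (6.77%) and 368 lower (5.45%). The groups did not overlap for 1544 genes (21.0%).

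The count depended on the pairs included. It was 361 without the WT untreated pair, 440 without the WT agLDL pair, 448 without the Ndst1-deficient agLDL pair and 1190 without the Ndst1-deficient untreated pair, which holds the array that stood apart. Within slide 1 (WT) 884 genes were called and within slide 2 (Ndst1-deficient) 106, with 36 higher and 70 lower. Each slide held 1 mouse of each number, so the p-values within a slide measure only spread between arrays of the same mice. The 32 genes chosen for their size were called over all 4 pairs and had the same sign in each pair. Their sign in each fit on part of the pairs was therefore fixed in advance and is no separate support. The 32 genes were called in each fit that left out 1 pair. They were also called on slide 1 alone, and 29 of them on slide 2 alone. These calls come from the same arrays that chose the genes, so they are no separate support either.

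**Figure D2:**
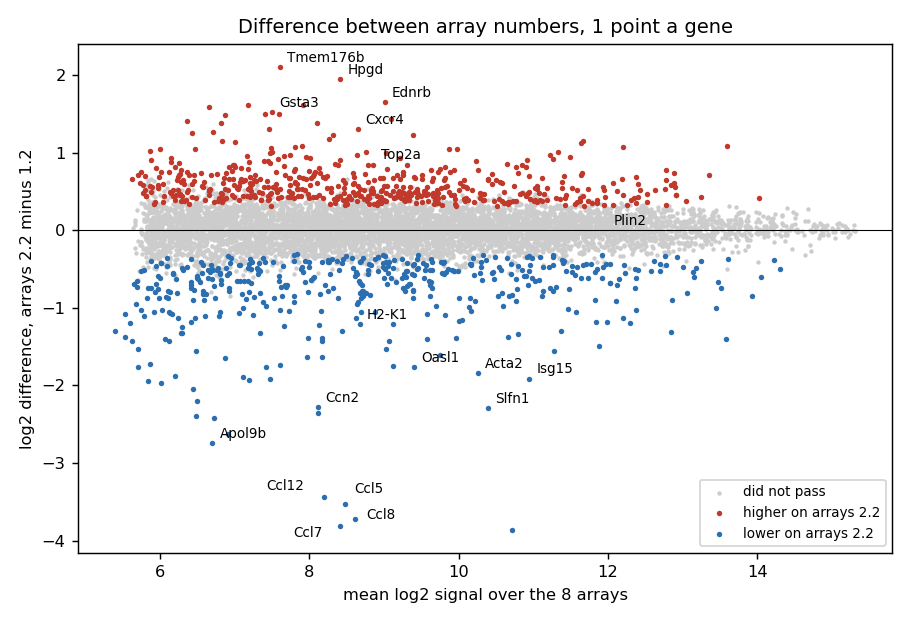
Difference of each gene (2.2 minus 1.2, log2, vertical axis) against its mean log2 signal over the 8 arrays (horizontal axis). Red points were higher (518) and blue points lower (443) on the 2.2 arrays at adjusted p under 0.05; the chemokines Ccl7, Ccl8, Ccl5 and Ccl12 lie lowest among the named genes.

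Chemokines of the CC class are secreted proteins that attract monocytes and T cells, and 4 of them, Ccl7, Ccl8, Ccl5 and Ccl12, had the largest measured falls among genes with a symbol. Of 9 measured CC chemokine genes, 7 were lower and 0 higher, against 6.02% and 7.04% of all genes, and the median difference was -2.63. With Ccl2 at its bound the median was -2.36, and over the 7 members detected on all 8 arrays it was -0.62. Ccl8, an attractant of monocytes, had log2 signals of 6.56, 6.99, 6.55 and 6.91 on the 2.2 arrays and 10.84, 10.59, 10.05 and 10.43 on the 1.2 arrays. Every 2.2 array lay far under its 1.2 partner, a 13.2-fold lower signal (difference -3.73 ± 0.14, SE, adjusted p = 6.11e-05). Ccl12, a CCR2 ligand of mice, read 6.35, 6.59, 6.49 and 6.48 on the 2.2 arrays and 9.77, 10.11, 9.41 and 10.38 on the 1.2 arrays. Its groups were wide apart, with a difference of -3.44 ± 0.15 (adjusted p = 8.99e-05), and the second Ccl12 probe gave -3.31.

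Ccl5 (RANTES), an attractant of T cells, read 6.44, 6.54, 7.29 and 6.59 on the 2.2 arrays and 10.61, 10.44, 9.51 and 10.42 on the 1.2 arrays. Both outlying Ccl5 values came from the Ndst1-deficient untreated pair, which had the smallest gap. The difference was -3.53 ± 0.30 (11.5-fold, adjusted p = 0.000764). Ccl7, another CCR2 ligand, was detected on 3 of the 4 arrays 2.2 and on all 1.2 arrays, and differed by -3.81 ± 0.20 (adjusted p = 0.000126). Ccl2, the classical monocyte attractant, was detected on 0 of the 4 arrays 2.2 and on 4 of the 4 arrays 1.2, so its size is a bound of at least 5.14-fold lower (adjusted p = 0.000126). Ccl3 and Ccl4 (macrophage inflammatory proteins) were bright on all 8 arrays and fell by much less. Ccl3 differed by -0.62 ± 0.09 (adjusted p = 0.00634) and Ccl4 by -0.39 ± 0.08 (adjusted p = 0.0259). Ccl6 and Ccl9 did not pass.

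Under the 2 genotype labels these chemokines differed alike in sign. Ccl8 was lower by -3.52 in the Ndst1-deficient pairs and -3.94 in the WT pairs. Ccl12 differed by -3.41 in the Ndst1-deficient pairs and -3.47 in the WT pairs. Ccl5 differed by -3.02 in the Ndst1-deficient pairs and -4.03 in the WT pairs. One unnamed probe, ILMN_1255416, singled out after its values were seen, was lower still, by 3.86 on the log2 scale (adjusted p = 3.34e-05), and has no gene in the annotation used here.

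Type I interferon-stimulated genes were lower as a group. Of 33 measured members 25 were lower and 0 higher, beside 6.02% and 7.04% of all genes, and the median difference was -0.83. The list counted 18 lower members without the WT untreated pair and 26 without the Ndst1-deficient untreated pair. The 8 members that did not pass were Irf9, Oas2, Bst2, Zbp1, Parp14, Ifi27l2a, Samhd1 and Lgals3bp. Zbp1, a sensor of Z-form nucleic acid, differed by 0.05 ± 0.10 (adjusted p = 0.79).

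Promoters of 4 members whose groups did not overlap are shown so that the motif and its setting can be read. They come from RefSeq (GRCm38.p6), run 5′ to 3′ along the gene from 250 bases before to 50 bases after its start, and have the motif in capitals. Isg15 lies at chr4:156200769-156201068 (minus strand), Stat2 at chr10:128270248-128270547 (plus strand), Rsad2 at chr12:26456403-26456702 (minus strand) and Gsta3 at chr1:21240335-21240634 (plus strand). The first 3 show the ISRE core, searched on both strands as 2 GAAA blocks with any 2 bases between them, and Gsta3 shows the core of the antioxidant response element, searched as TGACNNNGC on both strands.
Isg15: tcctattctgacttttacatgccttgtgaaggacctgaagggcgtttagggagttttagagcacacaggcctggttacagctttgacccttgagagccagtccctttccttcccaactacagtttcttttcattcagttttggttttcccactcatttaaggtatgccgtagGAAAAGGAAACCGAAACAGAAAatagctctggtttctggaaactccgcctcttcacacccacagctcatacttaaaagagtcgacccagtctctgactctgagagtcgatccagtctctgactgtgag
Stat2: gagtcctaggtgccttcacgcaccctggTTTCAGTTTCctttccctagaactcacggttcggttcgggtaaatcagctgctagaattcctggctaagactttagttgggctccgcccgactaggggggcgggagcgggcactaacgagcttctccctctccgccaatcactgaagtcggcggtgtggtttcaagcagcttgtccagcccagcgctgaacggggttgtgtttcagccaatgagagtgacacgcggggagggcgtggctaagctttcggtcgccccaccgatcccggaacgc
Rsad2: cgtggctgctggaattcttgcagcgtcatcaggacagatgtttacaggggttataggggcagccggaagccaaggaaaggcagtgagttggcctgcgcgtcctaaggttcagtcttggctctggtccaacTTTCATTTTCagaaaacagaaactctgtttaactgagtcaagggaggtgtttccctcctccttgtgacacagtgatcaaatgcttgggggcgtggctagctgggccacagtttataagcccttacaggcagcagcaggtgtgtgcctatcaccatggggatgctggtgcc
Gsta3: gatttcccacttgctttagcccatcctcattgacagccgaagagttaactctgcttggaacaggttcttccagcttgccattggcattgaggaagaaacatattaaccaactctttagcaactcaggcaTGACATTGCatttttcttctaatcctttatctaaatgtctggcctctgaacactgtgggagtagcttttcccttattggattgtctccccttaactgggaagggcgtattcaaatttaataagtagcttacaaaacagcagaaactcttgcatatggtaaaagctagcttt
In Isg15 3 overlapping ISRE matches form 1 run, ending 57 bases before the start. Stat2 and Rsad2 each held 1 match, on the opposite strand, 213 and 111 bases before the start. Of the 33 type I members 23 had a promoter in the table, and 10 of these (43.5%) held the core. The core was present in 3.99% of all 27025 promoters, in 4.06% of those of the tested genes, in 12.6% of those of the named genes that were lower on the 2.2 arrays (40 of 318) and in 2.73% of those that were higher (11 of 403). These shares describe letters in a window and were not tested.

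Effectors of the antiviral state were among the lower genes. Isg15, a ubiquitin-like protein that is joined to target proteins, read 9.64, 10.26, 9.88 and 10.16 on the 2.2 arrays and 11.97, 12.03, 11.81 and 11.77 on the 1.2 arrays. All 2.2 values lay below the lowest 1.2 value, and the difference was -1.91 ± 0.13 (3.76-fold lower, adjusted p = 0.000359). Oasl1, which binds viral RNA and restrains translation of Irf7, read 8.23, 8.57, 8.43 and 8.84 on the 2.2 arrays and 10.30, 10.13, 10.26 and 10.45 on the 1.2 arrays. Its groups did not overlap either (difference -1.77 ± 0.11, adjusted p = 0.000282). The GTPase Mx1 differed by -1.64 ± 0.15 (adjusted p = 0.000943) and Rsad2 (viperin), an antiviral radical enzyme, was lower too (95% interval -1.23 to -0.77, adjusted p = 0.00128).

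Of the regulators in the list, Irf9 did not pass (-0.26 ± 0.09, adjusted p = 0.12) and the 3 that follow were lower. Irf7, the factor that amplifies interferon genes, read 11.01, 11.00, 11.32 and 11.21 on the 2.2 arrays and 12.50, 12.38, 13.19 and 12.44 on the 1.2 arrays. The Ndst1-deficient untreated 1.2 array was the highest for Irf7, and the groups did not overlap (difference -1.49 ± 0.12, adjusted p = 0.000686). Usp18, which removes Isg15 from proteins and damps receptor signalling, differed by -1.20 ± 0.09 (adjusted p = 0.000575). Stat2 differed by -0.98 ± 0.08 (1.97-fold lower, adjusted p = 0.000699). In the Ndst1-deficient pairs Isg15 differed by -1.77, Irf7 by -1.55 and Stat2 by -0.97, and in the WT pairs Isg15 by -2.05, Irf7 by -1.44 and Stat2 by -0.99.

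**Figure D3:**
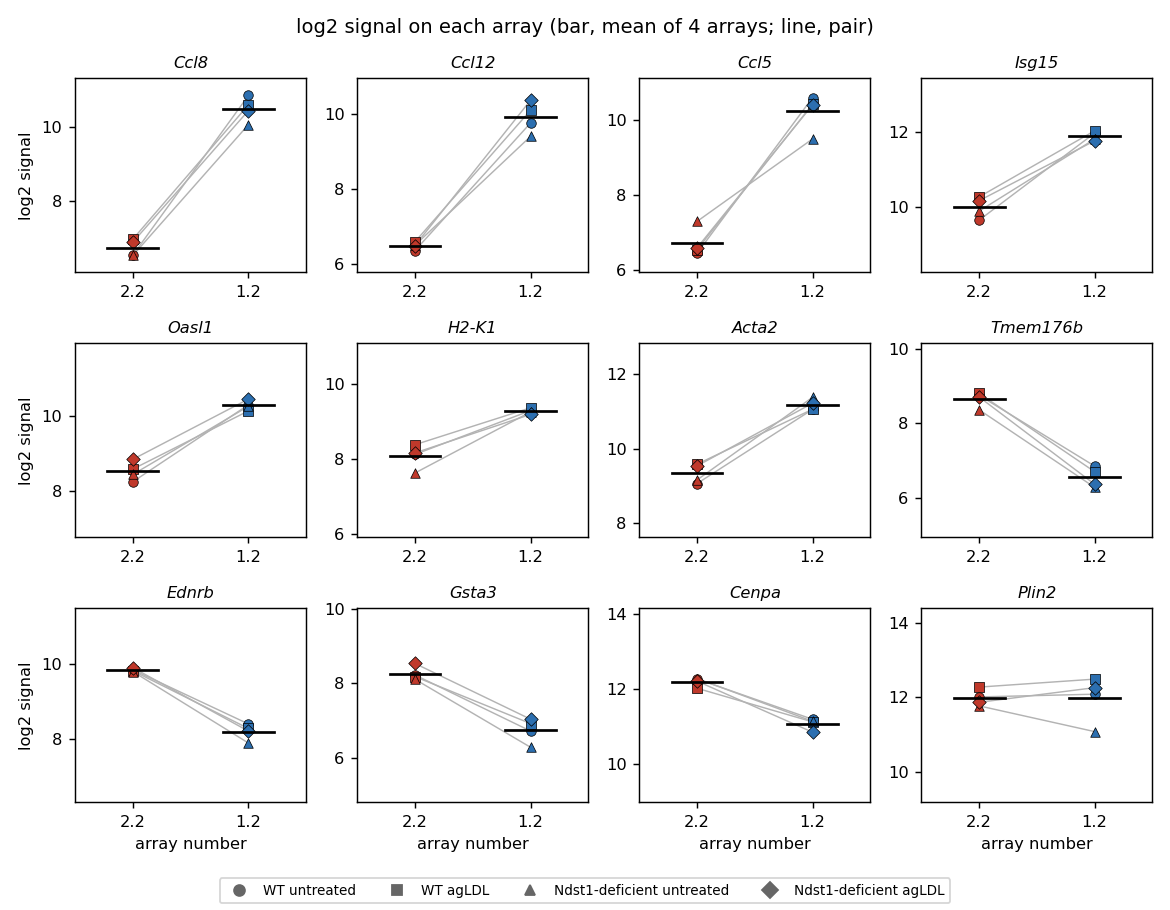
log2 signal (vertical axes) of 12 genes on each 2.2 array (red, left) and 1.2 array (blue, right); marker shapes give the genotype and agLDL label, grey lines join a pair and black bars are means of 4 arrays. The plotted chemokine, interferon and MHC class I genes and Acta2 lie lower on the 2.2 arrays, Tmem176b, Ednrb, Gsta3 and Cenpa lie higher, and the Plin2 groups overlap.

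Of 12 measured interferon gamma GTPases and regulators, 0 were higher and 7 lower, against 7.04% and 6.02% of all genes, with a median of -0.54. Of these, Gbp7 was detected on no 2.2 array and was tested only through the 1.2 arrays. Over the 11 members detected on all 8 arrays 0 were higher and 6 lower, and the median was -0.49. Gbp2, a guanylate-binding GTPase that acts on vacuoles of intracellular microbes, read 11.34, 11.38, 11.48 and 11.38 on the 2.2 arrays and 12.74, 12.53, 12.60 and 12.42 on the 1.2 arrays. The 4 Gbp2 values of each number lay close together and apart from the other number (difference -1.18 ± 0.09, adjusted p = 0.000686). Igtp, an immunity-related GTPase, differed by -1.06 ± 0.09 (adjusted p = 0.000773), Gbp3 by -1.15 ± 0.12 (adjusted p = 0.00175) and Cd274 (PD-L1), an inhibitory ligand of T cells, by -0.76 ± 0.10. Irf1, Irf8, Ifngr1, Ifngr2 and Jak2 did not pass.

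Presentation of peptides on MHC class I is among the processes that interferons raise. Of 14 measured class I and antigen-processing genes 0 were higher and 11 lower, against 7.04% and 6.02% of all genes, with a median of -0.53. The list had 6 lower members without the WT untreated pair, 6 without the WT agLDL pair and 10 without the Ndst1-deficient untreated pair. H2-K1, a classical class I heavy chain, read 8.12, 8.38, 7.62 and 8.16 on the 2.2 arrays and 9.29, 9.37, 9.26 and 9.19 on the 1.2 arrays. Its lowest value was on the 2.2 Ndst1-deficient untreated array, and the groups did not overlap (difference -1.21 ± 0.13, adjusted p = 0.00165). H2-Q7, a nonclassical chain, differed by -1.02 ± 0.10 (adjusted p = 0.00147) and H2-T23 (Qa-1) by -0.74 ± 0.08 (adjusted p = 0.00208). H2-Q8 differed by -1.73 ± 0.14 (adjusted p = 0.000686). Class I heavy chains are near-identical copies, so a probe may read several of them.

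Psmb9, a subunit of the immunoproteasome, differed by -0.80 ± 0.10 (adjusted p = 0.00334). The peptide transporter genes Tap1 and Tap2 were lower by 0.99 and 0.56 on the log2 scale. B2m, the common light chain, was bright on all arrays, at 14.78, 14.85, 14.75 and 14.71 on the 2.2 arrays and 14.85, 14.76, 14.67 and 14.81 on the 1.2 arrays. These B2m groups overlapped, and the 95% interval of the difference was -0.21 to 0.20. Among 9 MHC class II and costimulation genes 1 was higher, Cd74 (the invariant chain, 0.54 ± 0.09), and 1 lower, Cd40 (-0.55 ± 0.13). Over all genes 7.04% were higher and 6.02% lower.

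Other genes were named for the size of their fall. Slfn1, a Schlafen family gene, read 9.04, 9.19, 9.32 and 9.42 on the 2.2 arrays and 11.69, 11.40, 11.77 and 11.28 on the 1.2 arrays, and its groups lay far apart (difference -2.29 ± 0.14, adjusted p = 0.000264). Pou3f1, a POU-domain transcription factor, differed by -2.36 ± 0.11 (adjusted p = 9.19e-05). Cd69, a C-type lectin and early activation antigen, differed by -1.91 ± 0.17 (adjusted p = 0.000782), and BC147527 by -1.75 ± 0.15. Apol9b, of the apolipoprotein L family, was detected on 0 of the 4 arrays 2.2 and 4 of the 4 arrays 1.2, and was at least 4.62-fold lower (adjusted p = 3.34e-05). Cd300lf, a myeloid receptor, was likewise detected on all arrays 1.2 and none of the arrays 2.2 and was at least 3.01-fold lower.

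Cytokine genes were mixed. Of 18 interleukin and NF-kB feedback genes 5 were lower and 2 higher, against 6.02% and 7.04% of all genes, with a median of -0.08. Il1rn, the secreted antagonist of the interleukin-1 receptor, read 9.46, 9.59, 9.21 and 9.46 on the 2.2 arrays and 10.62, 10.83, 10.13 and 10.78 on the 1.2 arrays. Both numbers had their lowest Il1rn value in the Ndst1-deficient untreated array, and the groups did not overlap (difference -1.16 ± 0.10, adjusted p = 0.000723). The anti-inflammatory Il10 differed by -1.13 ± 0.13 (adjusted p = 0.00247) and Tnf by -0.81 ± 0.08 (adjusted p = 0.00136). Il1a differed by -0.58 ± 0.08 and Il18 also by -0.58. Il1b went the other way, at 7.69, 7.21, 7.76 and 7.63 on the 2.2 arrays and 7.04, 6.61, 6.44 and 5.65 on the 1.2 arrays. The groups did not overlap, and the difference was 1.14 ± 0.22 (adjusted p = 0.019). The lowest Il1b value, on the 1.2 Ndst1-deficient agLDL array, lay under the lowest detected signal of that array (5.86). The Il1b difference rests in part on that undetected value. Tnfaip2 was higher by 0.53. The receptor Cxcr4, through which CXCL12 retains cells in the marrow, was the only 1 of 8 CXC chemokine and receptor genes to pass. It was higher by 1.30 ± 0.15 (adjusted p = 0.00293).

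C2 and C4b supply the convertase of the classical complement pathway. C2 read 7.13, 7.27, 7.11 and 7.12 on the 2.2 arrays and 9.05, 8.71, 8.55 and 8.83 on the 1.2 arrays. The 2.2 values of C2 were nearly alike, the groups did not overlap and the difference was -1.63 ± 0.11 (adjusted p = 0.000359). C4b, detected on 1 of the 4 arrays 2.2 and 4 of the 4 arrays 1.2, differed by -1.55 ± 0.16 (adjusted p = 0.00147). With the receptor Vsig4 (-1.05 ± 0.15, adjusted p = 0.00515), 3 of 11 complement genes were lower, against 6.02% of all genes, and 0 higher, and C1qa, at -0.49 ± 0.15, did not pass.

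Receptors of the surface differed in both directions. Of 17 Fc receptor and C-type lectin genes 3 were higher and 4 lower, against 7.04% and 6.02% of all genes. Of the lower ones, Cd300lf was tested only through the 1.2 arrays. Over the 15 detected on all 8 arrays 3 were higher and 3 lower. The inhibitory Fcgr2b was higher by 0.78 ± 0.13 (adjusted p = 0.00927) and Clec4n (dectin-2) by 0.89 ± 0.10 (adjusted p = 0.00247). The activating receptors Fcgr1 and Fcgr4 were lower by 0.68 and 0.49. Among 16 Toll-like receptor genes 3 were lower, Cd180 by 0.68, Tlr6 by 0.53 and Tlr1 by 0.39, and the adaptor Ticam2 was higher by 0.46.

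Of 13 measured matrix genes 2 were higher and 7 lower, against 7.04% and 6.02% of all genes, with a median of -0.46. Of these 13, Sparc, Bgn, Col5a1, Timp3 and Lox were detected on no 2.2 array and were tested only through the 1.2 arrays, where they are high. Over the 7 members detected on all 8 arrays 2 were higher and 2 lower, and the median was 0.26. Acta2 (smooth muscle actin), a gene of contractile stromal cells, read 9.06, 9.58, 9.16 and 9.54 on the 2.2 arrays and 11.05, 11.06, 11.38 and 11.22 on the 1.2 arrays. Its groups did not overlap (difference -1.84 ± 0.13, adjusted p = 0.00049), and its other 3 probes gave -1.42, -1.58 and -1.62. Ccn2 (connective tissue growth factor) read 6.64, 7.14, 7.02 and 7.12 on the 2.2 arrays and 9.19, 9.22, 9.32 and 9.32 on the 1.2 arrays, with the 1.2 arrays nearly alike and the groups apart. The Ccn2 difference was -2.28 ± 0.10 (adjusted p = 8.99e-05).

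The proteoglycan Bgn (biglycan), the collagen-binding Sparc, the cross-linking enzyme Lox and the collagen Col5a1 were each detected on 4 of the 4 arrays 1.2 and on 0 of the 4 arrays 2.2. Bgn was at least 3.50-fold lower (adjusted p = 8.99e-05), Sparc at least 3.30-fold (adjusted p = 0.000126), Lox at least 1.93-fold and Col5a1 at least 1.83-fold. Timp1, an inhibitor of metalloproteinases, differed by -1.89 ± 0.10 (adjusted p = 0.000126). The higher matrix genes were Col18a1, at 9.80, 10.07, 9.53 and 9.84 on the 2.2 arrays and 8.49, 8.59, 7.76 and 8.65 on the 1.2 arrays (1.44 ± 0.11, adjusted p = 0.000686), and Mfge8, which bridges dying cells to phagocytes (0.45 ± 0.09). Col18a1, a basement membrane collagen, had its lowest value of each number in the Ndst1-deficient untreated array.

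Of 17 stromal and endothelial markers with a probe, 12 were detected on none of the 8 arrays, among them Col1a2, Col3a1, Dcn, Lum, Pdgfra, Pdgfrb, Pecam1, Cdh5 and Tagln. The summed linear signal of the 17 was 1220 to 1440 on the 2.2 arrays and 2760 to 3450 on the 1.2 arrays. Acta2 alone held 520 to 751 of that sum on the 2.2 arrays and 2110 to 2650 on the 1.2 arrays. Only 3 of the 17 were tested, Acta2 and Sparc, which are the genes described above, and Vwf, which was higher by 0.61 ± 0.08. In bulk RNA, fewer cells of a type and less RNA per cell cannot be told apart. The part of other cells in the matrix differences was not tested.

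Macrophage markers were detected on all arrays, 9 of 9 with a probe, with a summed linear signal of 90400 to 93100 on the 2.2 arrays and 80500 to 88900 on the 1.2 arrays. Of these 9, 1 was lower and 0 higher, against 6.02% and 7.04% of all genes. Of 17 granulocyte markers with a probe 12 were detected on all 8 arrays. Of 14 granulocyte markers tested 3 were lower and 0 higher, against 6.02% and 7.04% of all genes. The other 11 did not pass, and the median was -0.09. The lower ones were the granule proteases Mpo (-0.87 ± 0.12), Ctsg (-1.13 ± 0.09) and Elane (-0.45 ± 0.10). The summed linear signal of the 17 was 21100 to 24000 on the 2.2 arrays and 17900 to 21900 on the 1.2 arrays. No array detected 10 of 11 T and NK, 6 of 7 B or 10 of 10 mast and basophil markers with a probe. Among these were Cd3e, Ncr1, Cd79a, Ms4a1 and Mcpt4. Also on no array were 10 of 11 dendritic markers, with Flt3 and Zbtb46 among them. The remaining B and the remaining dendritic marker were detected on all 8 arrays, the remaining T and NK marker on fewer. No array detected 4 of 7 monocyte, 7 of 11 osteoclast or 8 of 10 erythroid and megakaryocyte markers either. Of 3 monocyte markers tested 1 was higher and 1 lower, and of 4 osteoclast markers 2 were higher and 1 lower. Over all genes 7.04% were higher and 6.02% lower. Only 1 of the 3 monocyte markers was detected on all 8 arrays, and it did not pass. Xist was detected on all 8 arrays at a like level (difference -0.05 ± 0.12) and the Y-linked Eif2s3y, Kdm5d and Uty on none.

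Proteases of the matrix were mixed. Of 13 measured, 4 were lower and 2 higher, against 6.02% and 7.04% of all genes. The collagenase Mmp13 read 11.16, 11.49, 11.12 and 11.20 on the 2.2 arrays and 12.54, 12.44, 12.18 and 12.56 on the 1.2 arrays, with no overlap (difference -1.18 ± 0.11, adjusted p = 0.000902). Plau, the urokinase that activates plasminogen, differed by -0.91 ± 0.09 (adjusted p = 0.00151) and the membrane metalloproteinase Mmp14 by -0.82 ± 0.10 (adjusted p = 0.00295). The gelatinase Mmp9 was higher by 0.60 ± 0.12 and the transglutaminase F13a1 by 1.38 ± 0.15.

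Among genes detected on all 8 arrays Tmem176b, Hpgd, Ednrb and Gpr34 had the largest rises. Tmem176b, a tetraspan protein of the Ms4a type that forms a cation channel in endosomes, read 8.75, 8.80, 8.36 and 8.71 on the 2.2 arrays and 6.85, 6.70, 6.28 and 6.37 on the 1.2 arrays. All values of the 2.2 arrays lay above the highest 1.2 value (4.30-fold higher, 95% interval of the log2 difference 1.87 to 2.34, adjusted p = 9.42e-05). Its neighbour Tmem176a, detected on 4 of the 4 arrays 2.2 and 2 of the 4 arrays 1.2, was higher by 1.59 ± 0.14 (adjusted p = 0.000773). Within the same 5-member list Ms4a6b was lower by 1.05 and Ms4a6d by 0.61, so the list held changes in both directions. Ms4a6b was detected on 1 of the 4 arrays 2.2 and 4 of the 4 arrays 1.2.

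Hpgd, the dehydrogenase that inactivates prostaglandins, read 9.36, 9.10, 9.79 and 9.32 on the 2.2 arrays and 7.49, 7.62, 7.12 and 7.54 on the 1.2 arrays. The Ndst1-deficient untreated pair had the widest gap, and the difference was 1.95 ± 0.18 (3.86-fold, adjusted p = 0.00105). Ednrb, the endothelin B receptor, read 9.84, 9.81, 9.79 and 9.90 on the 2.2 arrays and 8.39, 8.27, 7.88 and 8.20 on the 1.2 arrays. The 2.2 values of Ednrb were nearly alike and above every 1.2 value (difference 1.65 ± 0.10, adjusted p = 0.000282). Gpr34, a receptor for lysophosphatidylserine, read 8.24, 7.68, 8.13 and 7.89 on the 2.2 arrays and 6.52, 6.51, 6.33 and 6.10 on the 1.2 arrays, again apart (1.62 ± 0.13, adjusted p = 0.000686). With F13a1 and the scavenger receptor Stab1 (0.73 ± 0.12, adjusted p = 0.00851), 5 of 16 tissue macrophage and alternative activation genes were higher, against 7.04% of all genes. Vsig4, which also stands in the complement list, was the 1 that was lower, and the median was 0.13.

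Other large rises were spread over enzymes and signalling proteins. Sult1a1, a phenol sulfotransferase, differed by 1.62 ± 0.13, and Matk, a kinase that restrains Src family kinases, by a factor of 2.84 (adjusted p = 0.000279). Dapk1, a death-associated kinase, differed by 1.49 ± 0.17, the hemichannel Panx1 by 1.39 ± 0.09 and the zinc finger gene Zfp704 by 1.31 ± 0.12. Detected on 4 of the 4 arrays 2.2 and on 0 of the 4 arrays 1.2 were the zinc finger gene Zfp30 (at least 1.63-fold higher), the neutral sphingomyelinase Smpd3 (at least 1.48-fold), Eps8l1 (at least 1.44-fold) and the chondroitin sulfotransferase Chst7 (at least 1.24-fold). Of the 13 genes detected in that way 10 were called, and of the 33 genes detected on all arrays 1.2 and on none of the arrays 2.2 the fit called 31. Both sets were picked by a gap in detection and tested only through the number that detected them. Their call rates follow in part from that choice, and over all genes 13.1% were called.

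Enzymes of glutathione and antioxidant defence that the factor NRF2 controls were in part higher. Of 22 measured, 6 were higher and 1 lower, beside 7.04% and 6.02% of all genes, with a median of 0.24. Without the WT untreated pair 4 were higher, and without the Ndst1-deficient untreated pair 8. Gsta3, a glutathione transferase, read 8.23, 8.18, 8.11 and 8.54 on the 2.2 arrays and 6.72, 6.92, 6.29 and 7.04 on the 1.2 arrays. The lowest 2.2 value of Gsta3 exceeded the highest 1.2 value (difference 1.52 ± 0.11, adjusted p = 0.00049). Gstm1, another transferase, differed by 0.82 ± 0.10 (adjusted p = 0.00329), Gclm, a subunit of the rate-limiting enzyme of glutathione synthesis, by 0.66 ± 0.09 (adjusted p = 0.00416) and Cat (catalase) by 0.84 ± 0.13 (adjusted p = 0.00797). Srxn1 and Slc7a11 were the other 2 higher members. Keap1, the inhibitor of NRF2, was the lower one (-0.46 ± 0.09, adjusted p = 0.0204). Nqo1 and Hmox1 did not pass. The antioxidant core letters stood in 28.6% of the 21 promoters of this list that were in the table, 113 bases before the start in the Gsta3 promoter printed above, and in 3781 of all 27025 promoters.

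Of 31 measured genes of DNA replication and mitosis 11 were higher and 1 lower, against 7.04% and 6.02% of all genes, 19 did not pass, and the median was 0.33. The count of higher members was 5 without the WT untreated pair, 7 without the WT agLDL pair, 7 without the Ndst1-deficient agLDL pair and 14 without the Ndst1-deficient untreated pair. Cenpa, the histone of the centromere, read 12.27, 12.02, 12.28 and 12.21 on the 2.2 arrays and 11.19, 11.12, 11.13 and 10.84 on the 1.2 arrays. Its groups lay apart in every pair (difference 1.12 ± 0.10, adjusted p = 0.000909). Tk1, a thymidine kinase of S phase, read 10.36, 10.33, 10.30 and 10.57 on the 2.2 arrays and 8.99, 9.22, 9.65 and 9.51 on the 1.2 arrays (1.05 ± 0.13, adjusted p = 0.00309). The G1 to S cyclin Ccne2 was higher by 0.89 ± 0.09 (adjusted p = 0.00147) and the topoisomerase Top2a by 0.85 ± 0.12 (adjusted p = 0.00627). Ccnd1, a D-type cyclin that responds to growth factors, was the lower member (-0.54 ± 0.11, adjusted p = 0.0209). Ccnd2, a D-type cyclin outside that list, was detected on 0 of the 4 arrays 2.2 and 4 of the 4 arrays 1.2 and was at least 4.17-fold lower (adjusted p = 0.000359).

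**Figure D4:**
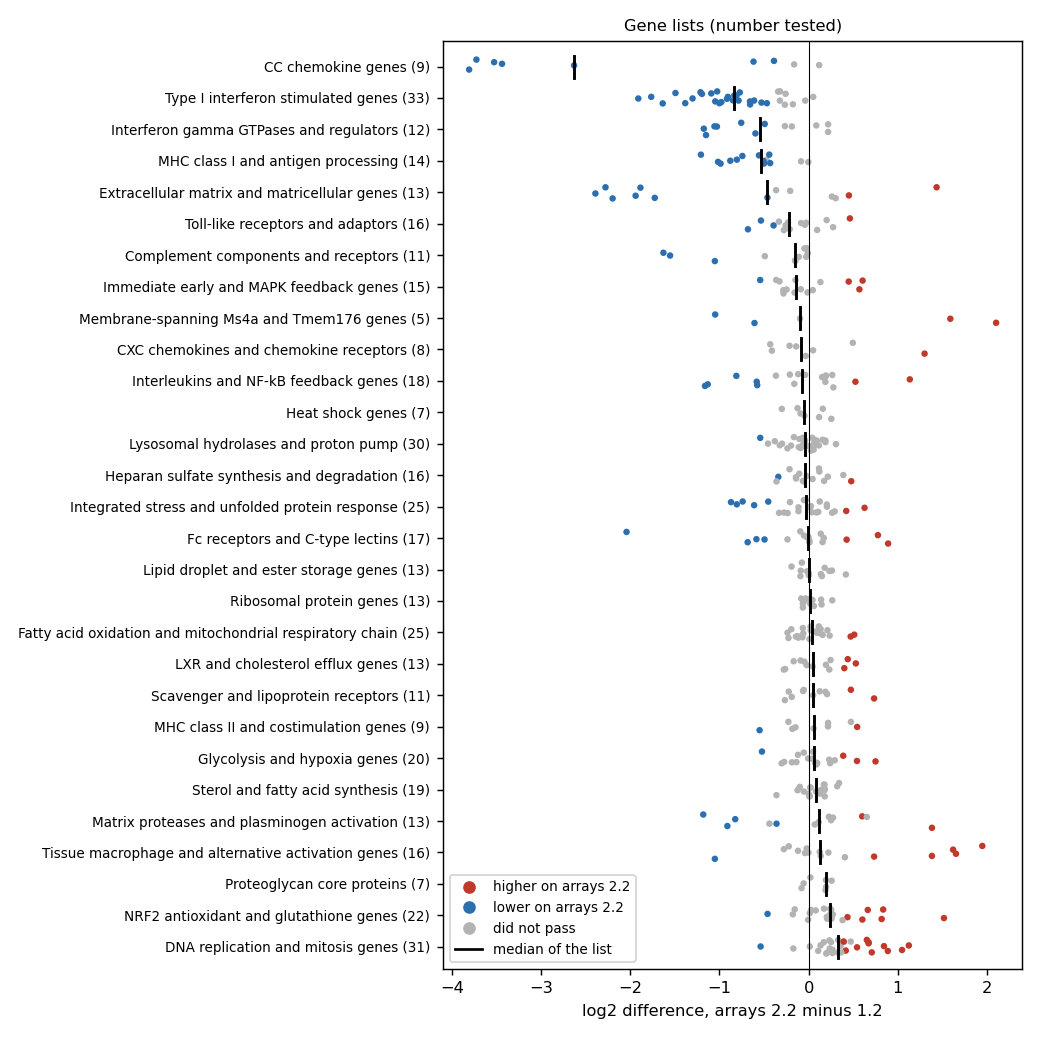
Differences (2.2 minus 1.2, log2, horizontal axis) of the measured members of 29 gene lists, 1 point a gene, red or blue where it passed the test, with the list median as a black bar and the number tested in brackets. CC chemokines and interferon, MHC class I and matrix genes stand at the top, with medians from -2.63 to -0.46, and replication genes at the bottom, with 0.33; members that 1 side did not detect are drawn at their measured difference.

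Stress genes were mixed. Of 25 genes of the integrated stress and unfolded protein responses, 5 were lower and 2 higher. These counts and those of the lists that follow stand beside 6.02% lower and 7.04% higher over all genes. The lower stress genes were known targets of the factor ATF4, Trib3 (-0.87), Slc7a5 (-0.81 ± 0.15), Chac1 (-0.74 ± 0.14), Ddit3 (-0.61) and Asns (-0.45 ± 0.09). The higher ones were the endoplasmic reticulum genes Herpud1 (0.63 ± 0.10) and Hsp90b1 (0.42). Atf4, Atf3 and Hspa5 did not pass. Among 15 immediate early and MAPK feedback genes Ier3 (0.61 ± 0.09), Egr2 (0.57 ± 0.13) and Jund (0.45 ± 0.10) were higher and the phosphatase Dusp6 was lower (-0.54 ± 0.11). Of 20 glycolysis and hypoxia genes Ndrg1 (0.75 ± 0.13), Bnip3l (0.54 ± 0.10) and Pfkl (0.39 ± 0.09) were higher, and the hexokinase Hk2 was lower (-0.52 ± 0.09).

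The study's labels concern lipid loading and heparan sulfate, and the calls of these lists are set against the 7.04% of all genes that were higher and 6.02% that were lower. Among 13 lipid droplet and ester storage genes none passed. Plin2, which coats lipid droplets, read 12.02, 12.28, 11.78 and 11.87 on the 2.2 arrays and 12.09, 12.49, 11.09 and 12.26 on the 1.2 arrays. The Plin2 groups overlapped, and the 95% interval of the difference was -0.41 to 0.41. Among 19 sterol and fatty acid synthesis genes none passed, and among 13 LXR and cholesterol efflux genes 3 were higher, Apoc2 (0.53 ± 0.09), Apoc1 (0.44 ± 0.09) and the transporter Abcg1 (0.40 ± 0.10), 23.1% of that list. Scavenger receptors gave 2 higher of 11, Stab1 and the beta-glucan receptor Clec7a (0.47 ± 0.10). Of 16 heparan sulfate genes, Hs2st1, a sulfotransferase, was higher (0.48 ± 0.08, adjusted p = 0.0115) and Xylt2, which starts the chain, was lower (-0.34 ± 0.09, adjusted p = 0.047), 12.5% of the list against 13.1% of all genes. None of 7 proteoglycan core genes, 7 heat shock genes or 13 ribosomal protein genes passed, and of 30 lysosomal genes 1 was lower, Ctsl (-0.54 ± 0.11). Of 25 genes of fatty acid oxidation and respiration 2 were higher, Acot1 (0.51 ± 0.08) and Hadhb (0.47 ± 0.12).

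The genotype and agLDL labels were set beside number in 1 additive fit of the 8 arrays. In that fit number gave 1103 calls, while the genotype label gave 0 (928 genes at an unadjusted p under 0.05) and the agLDL label 0 (837 genes), where 368 would be expected under no difference. Plin2 was 0.49 ± 0.17 higher with agLDL (adjusted p = 0.42) and 0.47 lower under the Ndst1-deficient label (adjusted p = 0.343). Neither difference passed.

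Whether the number difference depended on a label was tested on the 4 paired differences, with 2 residual degrees of freedom. No gene passed by genotype label (280 at an unadjusted p under 0.05) or by agLDL label (369 genes), and percent called was 0. The smallest p by genotype label belonged to Pkib, an inhibitor of protein kinase A, at -1.12 in the Ndst1-deficient pairs and 0.06 in the WT pairs (adjusted p = 0.971), and to Ccng2, an atypical cyclin, at 0.71 in the Ndst1-deficient pairs and -0.43 in the WT pairs (adjusted p = 0.971). By agLDL label they were Ptpdc1, a phosphatase, at -0.78 in the agLDL pairs and 0.24 in the untreated pairs, and Nop14, of ribosome assembly, at 0.20 in the agLDL pairs and -0.82 in the untreated pairs (both adjusted p = 0.864). Across all 7360 genes, which are not independent replicates, the mean differences of the Ndst1-deficient and WT pairs had Pearson's r = 0.734 and Spearman's rho = 0.562, and 68.7% had the same sign. The 2 sets of pairs share the array positions of each number.

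**Figure D5:**
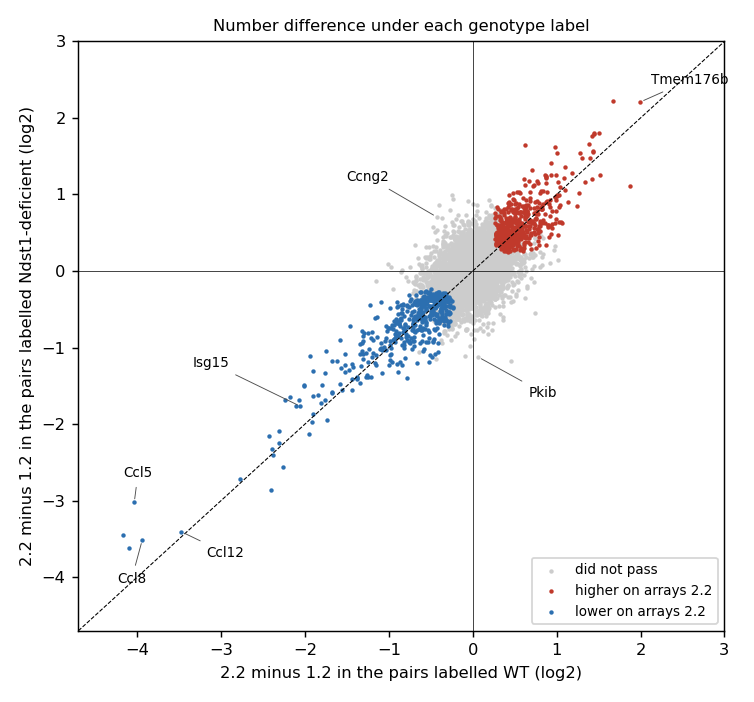
Mean difference between numbers (2.2 minus 1.2, log2) in the 2 pairs labelled Ndst1-deficient (vertical axis) against that in the 2 pairs labelled WT (horizontal axis), 1 point a gene, red or blue where the fit of all 4 pairs called it; the dashed line marks equal values. Called genes lie along the line in the same quadrant, which a call over all 4 pairs favours. Ccng2 and Pkib, which did not pass, lie away from the line.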

How the data were processed

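Per the file headers, the authors deposited a bead intensity per probe for each of 16 arrays, with no background subtracted and no normalization, together with a detection p-value. The submitters' processing notes name GenomeStudio without further detail. The authors' deposited series matrix, intensities on a linear scale after a background subtraction by an unknown normalization, served only as an alternative.

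The platform annotation gave 1 symbol for 23978 of 25697 probes, several for 0 and none for 1719. Looking up 23962 of them by Entrez identifier changed 0. In R 4.3.3, neqc of limma 3.58.1 corrected the background (798 negative controls are implied), with an offset of 16 and quantile normalization across all 16 arrays, on the log2 scale. Probes with a detection p below 0.01 on 4 or more of the 8 arrays were tested. Each gene was represented by the probe that most arrays detected, and then by the brightest, which left 6820 named genes plus 540 probes with no name. Among 1792 genes with several such probes, 281 had a called probe, 103 had only called probes and 0 had opposite calls. Where no array of 1 number detected a gene, its fold is a bound, set against the lowest detected signal of each array or the gene's own value if that was higher.

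The fit (lmFit, eBayes) had the pair and the number as terms, 3 residual degrees of freedom, a two-sided test and Benjamini-Hochberg adjustment over 7360 at 0.05. It was tested on simulated data first. Named genes were the 12 largest rises and falls among genes detected on all 8 arrays, the 4 largest on each side among those detected on 1 number only, up to 4 members a list by moderated t with any opposite call, the 2 smallest p of each label test, and Lyz2. Further list members are named with their values known. The 29 gene lists and 11 marker lists, like the comparison, were chosen with earlier results of these data known, and are described by counts and medians with no list test. Some genes stand in several lists. Alternatives changed the pairing, the arrays, background, normalization, filter, probe rule and variance, and left out each pair. Ndst1 was not analysed here.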

Additional observations from a re-analysis of the deposited data

Results flagged for a closer look

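Of 68 groups of 4 array values checked, 3 held an array far from the other 3 of its number, about as many as the 1 in 20 that chance flags. Eps8l1 had a log2 signal of 6.80 on the 2.2 WT untreated array, against 6.13 to 6.24 on the other 2.2 arrays. Apol9b had 8.24 on the 1.2 Ndst1-deficient agLDL array, against 8.01 to 8.04 on the other 1.2 arrays. The raw 75th percentile signal of the 2.2 WT agLDL array was 358.8, against 340.2 to 343.1 on the other 2.2 arrays.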

How the results depend on the processing

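The comparison gave 961 calls with the pairs as a block and 972 with no replicate block, so the block changed the count little, and 845 of the 961 were shared. It gave 934 to 1348 calls over the other scalings, sources of values, variance settings and fits on the same genes, 778 of 18312 with no filter on dim probes and 911 of 6754 with detection on all 8 arrays. Within slide 2 (Ndst1-deficient) 106 were called, 36 higher and 70 lower, within the untreated arrays 237 (94 and 143) and within the agLDL arrays 332 (138 and 194). Leaving out 1 pair gave 361 to 1190 calls, with 167 to 636 higher and 194 to 554 lower. The higher share of the calls was 53.9% in all 4 pairs, 34.0% within slide 2, 39.7% within the untreated arrays, 41.6% within the agLDL arrays and 47.4% within slide 1. Fewer arrays enter each of these fits, a fit within a slide holds 1 mouse of each number, and the cause of the changed shares was not tested. MHC class I members called lower ranged from 6 to 10 and replication members called higher from 5 to 14 when 1 pair was left out. Over the 7 lists followed, the other counts stayed within 1.5 times of the reported one and every median kept its sign, the CC chemokine median being -1.31 with no background correction. The 32 genes chosen for their size kept their sign under every alternative that measured them (24 of them with detection on all 8 arrays). Where pairs were left out or split, that sign was fixed in advance, since each gene had the same sign in every pair. Calls lost were Cxcr4 within the agLDL arrays (1.18), Smpd3 (0.90) and Eps8l1 (0.63) within slide 2, and Chst7 within slide 2, the untreated arrays and the agLDL arrays (0.86, 0.70 and 0.79). The label and interaction tests stayed at 0 calls with other filters. Precision is limited by the 2 pairs of mice, and genes near the background have only bounds.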
